A study of Homo sapiens with 9 samples.

Results

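The libraries labelled MDA-MB-453 were compared with those of the lines MDA-MB-231 and MDA-MB-436 that carry the same treatment label. Their members are the 3 libraries whose labels name MDA-MB-453, of 9 in all, and they were chosen by label and not by expression. The 3 groups of libraries are the line labelled MDA-MB-453, MDA-MB-231 and MDA-MB-436, all human lines described as triple-negative breast cancer and grown in DMEM with serum. Each line has 1 library labelled Control (no treatment in the sample labels, shControl in the column headers), 1 labelled GSK343 and 1 labelled shEZH2. GSK343 inhibits EZH2, the methyltransferase of Polycomb repressive complex 2, and shEZH2 is a hairpin RNA against its transcript. The 9 libraries thus form 3 matched sets of 3 lines. Nothing in the sources used here says that libraries of 1 line came from separate cultures, so p-values measure only the spread over the 3 sets.

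MDA-MB-453 is known as a line of luminal and apocrine character. Such cells keep a luminal epithelial programme with the pioneer factor FOXA1, luminal keratins and secretory genes and little of the mesenchymal programme. MDA-MB-231 and MDA-MB-436 are known as mesenchymal-like lines. The comparison therefore asks whether the 3 libraries showed luminal genes, genes of their own, or levels that weighted sums of the other lines describe.

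The unit throughout is RPKM, reads per kilobase of gene, scaled by library size. The libraries labelled MDA-MB-453 rested on 15342298 to 16626100 reads and the other 6 on 14757043 to 18283426. The number of genes above 0 was 23900 to 26726 in the 3 libraries and 22975 to 27230 in the other 6. Tests covered the 12965 of 58037 genes that reached 1 RPKM in 3 or more libraries.

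EZH2, the gene that the treatments address, had 42.3, 7.99 and 16.2 RPKM in the Control, GSK343 and shEZH2 libraries labelled MDA-MB-453. It had 27.4, 5.77 and 16.4 in MDA-MB-231 and 38.9, 7.53 and 37.4 in MDA-MB-436. Under the label MDA-MB-453 EZH2 was thus above both lines in the Control and GSK343 sets. In the shEZH2 set it was below both, though close to MDA-MB-231. EZH2 was lowest in the GSK343 library of each line, and in MDA-MB-436 the library labelled shEZH2 was close to Control, so that label is not borne out by the level of its target there.

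Luminal markers were at intermediate levels where MDA-MB-453 was the label. FOXA1 (ENSG00000129514.5, chromosome 14, 37589984 to 37596059), which opens chromatin for steroid receptors, had RPKM of 1.01, 2.37 and 1.62 in the Control, GSK343 and shEZH2 libraries labelled MDA-MB-453. It had 0.150, 0.204 and 0.316 in MDA-MB-231 and 2.77, 3.31 and 3.29 in MDA-MB-436. The 3 libraries lay between the other lines in every set, without overlap. SPDEF (ENSG00000124664.10, chromosome 6, 34537802 to 34556333), an ETS factor of luminal secretory cells, had 5.90, 19.4 and 20.1 in the libraries labelled MDA-MB-453. It had 24.4, 28.9 and 43.0 in MDA-MB-231 and 0.0623, 0.0631 and 0.117 in MDA-MB-436. Here too the 3 libraries stood between the lines, with MDA-MB-231 on top. KRT8 (ENSG00000170421.12, chromosome 12, 52897187 to 52949954), a keratin of simple and luminal epithelium, had 37.3, 34.3 and 39.3 in the libraries labelled MDA-MB-453, against 86.0, 55.8 and 58.0 in MDA-MB-231 and 34.6, 20.3 and 19.7 in MDA-MB-436. It was lower than in MDA-MB-231 and higher than in MDA-MB-436 in 3 of 3 sets, though its range overlapped that of MDA-MB-436.

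Tests were made with limma on the 3 within-set differences of log2(RPKM + 1), with adjustment over all 12965 genes and 95% confidence limits as errors. FOXA1 was higher than in MDA-MB-231 (log2 difference 1.10 ± 0.35, adjusted p = 8.14e-05) and lower than in MDA-MB-436 (-0.66 ± 0.36, adjusted p = 0.0178). SPDEF was lower than in MDA-MB-231 (-1.16 ± 0.43, adjusted p = 0.000326) and higher than in MDA-MB-436 (3.73 ± 0.71, adjusted p = 0.000284). KRT8 was lower than in MDA-MB-231 (-0.81 ± 0.40, adjusted p = 0.00348) and higher than in MDA-MB-436 (0.60 ± 0.43, adjusted p = 0.0442). The call of KRT8 against MDA-MB-436 was lost without the GSK343 set (0.53, adjusted p = 0.14) or the shEZH2 set (0.42, adjusted p = 0.333), and that of FOXA1 against MDA-MB-436 without the shEZH2 set (-0.63, adjusted p = 0.057). With the sets ignored (no replicate block), limma adjusted p was 0.105 for SPDEF against MDA-MB-231, and 0.0561 for FOXA1 and 0.0938 for KRT8 against MDA-MB-436. Against the mean of both lines none of the 3 markers passed. Their log2 differences were -0.03 ± 0.30 for FOXA1, -0.21 ± 0.41 for SPDEF and -0.27 ± 0.35 for KRT8, with limma adjusted p of 0.953, 0.741 and 0.696.

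Further luminal genes differed in level. The secreted proteins TFF1 and PIP, both typical luminal or apocrine products, were at most 0.109 RPKM and at 0 in the libraries labelled MDA-MB-453. ESR1, the oestrogen receptor, was at most 0.0273 there. KRT7, another keratin of simple epithelium, had 23.2, 42.3 and 37.1 RPKM in the libraries labelled MDA-MB-453, 64.3, 70.4 and 65.7 in MDA-MB-231 and 7.58, 6.53 and 6.85 in MDA-MB-436. KRT19 (ENSG00000171345.13, chromosome 17, 41523617 to 41528308), a luminal keratin, had 41.8, 60.0 and 91.1 RPKM in the libraries labelled MDA-MB-453, 151, 141 and 201 in MDA-MB-231 and 0.383, 0.207 and 0.1202 in MDA-MB-436. It passed against both lines (-1.39 ± 0.40 against MDA-MB-231, adjusted p = 2.19e-05, and 5.66 ± 0.58 against MDA-MB-436, adjusted p = 1.91e-05, limma), but not against their mean (-0.40 ± 0.35, adjusted p = 0.694). Without the filter on low values the calls of FOXA1, SPDEF, KRT8 and KRT19 against each line were lost, with limma adjusted p between 0.0807 (KRT19 against MDA-MB-436) and 0.302 (KRT8 against MDA-MB-436). With the mean of log2 values as the other side, KRT19 turned to 2.13 (limma adjusted p = 4.24e-05) and SPDEF to 1.29 (adjusted p = 0.00823). That mean lies below the mean RPKM by construction.

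**Figure D1:**
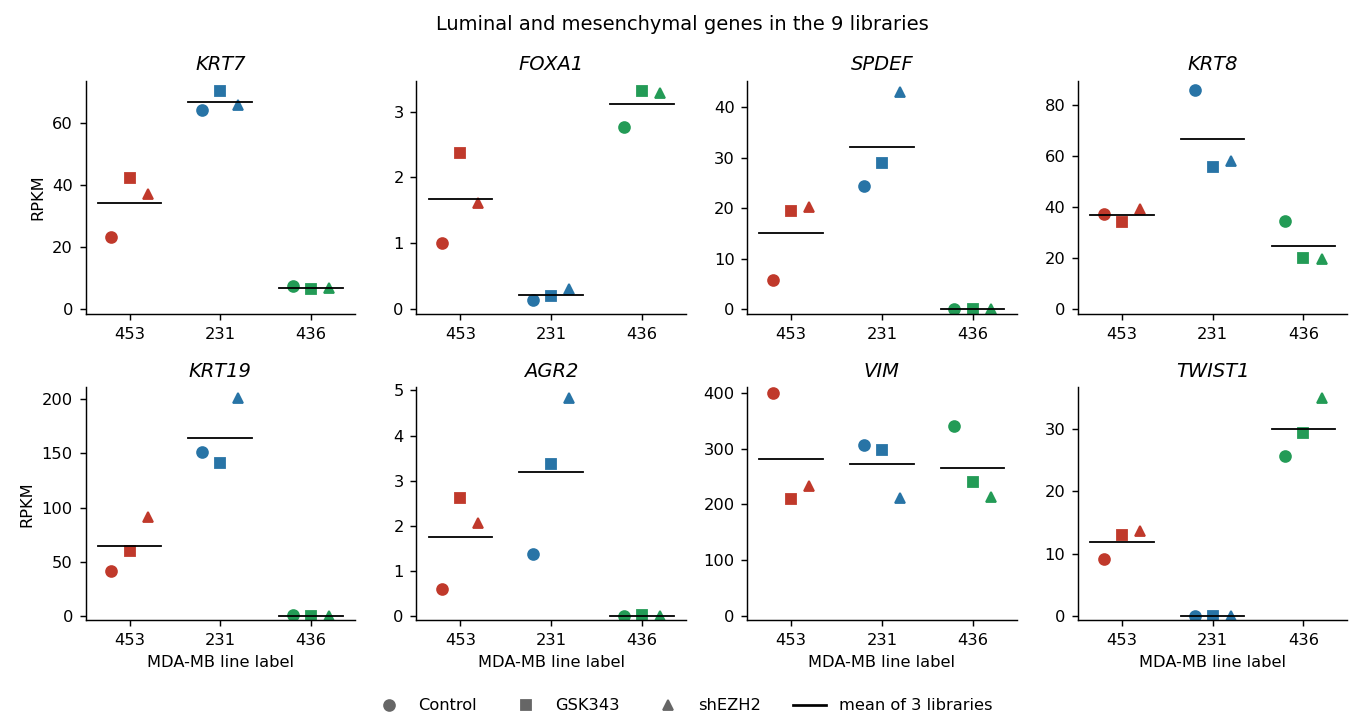
RPKM (vertical axis, from 0) of 8 genes in the libraries labelled MDA-MB-453 (left of each panel), MDA-MB-231 and MDA-MB-436. Symbols mark the treatment label and lines the mean of 3 libraries. KRT7, FOXA1, SPDEF, KRT8, KRT19, AGR2 and TWIST1 lay between the other lines in all 3 sets. The genes were picked for display, and of the list of 35 luminal genes only 16 did so.

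Of the list of 35 luminal genes, 24, 25 and 30 lay between the other lines (ties counted) in the Control, GSK343 and shEZH2 sets, and 16 did so in all 3. Over all tested genes the share between the other lines was 47.1% in the Control set, 73.8% in the GSK343 set and 83.0% in the shEZH2 set. The luminal counts were near that share in the GSK343 and shEZH2 sets, but they take all 35 members, of which only 19 were tested. In every library labelled MDA-MB-453, 16 members were under 1 RPKM, where the order of lines is uncertain. Counts and shares thus cover unlike genes. The list summed to 334 to 404 RPKM in the libraries labelled MDA-MB-453, 508 to 596 in MDA-MB-231 and 238 to 275 in MDA-MB-436, and was thus highest in MDA-MB-231. The luminal genes above both lines numbered 6, 9 and 4 of 35, beside 30.4%, 11.2% and 10.3% of all tested genes. Only SLC39A6, a zinc transporter of luminal tumours, had its highest value under the label MDA-MB-453 in each of the 3 sets. It had 35.8, 30.7 and 26.0 RPKM there, 26.2, 26.4 and 22.9 in MDA-MB-231 and 23.2, 25.5 and 24.3 in MDA-MB-436, and the difference from their mean did not pass (0.30 ± 0.33, limma adjusted p = 0.694). Of the 19 luminal genes tested 0 passed against the mean of the other lines in either direction. Over all tested genes 2 passed, which is 0.0154%. Against MDA-MB-231 alone 3 luminal genes rose and 7 fell, and 32.1% of all tested genes passed in either direction. Against MDA-MB-436 10 rose and 4 fell, beside 31.8% of all tested genes. The secretory protein AGR2 was among those between, with 0.589, 2.61 and 2.05 RPKM in the libraries labelled MDA-MB-453, 1.36, 3.36 and 4.83 in MDA-MB-231 and 0, 0.0212 and 0 in MDA-MB-436.

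Of 18 androgen-responsive genes 13, 10 and 12 lay between the other lines in the 3 sets, against 47.1%, 73.8% and 83.0% of all tested genes. The share was lower than over tested genes in the GSK343 and shEZH2 sets. However, only 11 of the 18 were tested and 7 were under 1 RPKM in every library labelled MDA-MB-453, so the shares cover unlike genes. Of the 18, 4 were above both lines in each set, beside 30.4%, 11.2% and 10.3% of all tested genes. In all 3 sets 0 was so. Of the 11 tested, 0 passed against the mean of the other lines, 2 rose and 1 fell against MDA-MB-231, and 1 rose and 1 fell against MDA-MB-436. Over all tested genes 0.0154%, 32.1% and 31.8% passed in these comparisons in either direction. The prostate kallikreins KLK2 and KLK3 were at 0 in all 9 libraries. FKBP5, a co-chaperone of steroid receptors and chosen after its values were seen, had 5.90, 4.44 and 5.67 RPKM in the libraries labelled MDA-MB-453, 8.90, 7.76 and 9.44 in MDA-MB-231 and 0.762, 1.30 and 1.004 in MDA-MB-436. ALDH1A3, a retinaldehyde dehydrogenase, showed the opposite order of lines, with 45.6, 21.9 and 22.9 in the libraries labelled MDA-MB-453, 1.01, 0.728 and 1.43 in MDA-MB-231 and 74.6, 47.9 and 48.5 in MDA-MB-436. Of 7 genes of the ERBB2 amplicon 3, 6 and 6 lay between the other lines, beside the same 47.1%, 73.8% and 83.0%. In the Control set 4 of the 7 were below both lines, as were 22.6% of all tested genes. Of the 6 tested, 0 passed against the mean, 3 fell against MDA-MB-231 and 1 rose against MDA-MB-436, beside the same 0.0154%, 32.1% and 31.8% of all tested genes. ERBB2 itself, the receptor HER2, had 6.25, 8.58 and 8.38 in the libraries labelled MDA-MB-453, 11.1, 8.93 and 9.73 in MDA-MB-231 and 6.40, 6.46 and 6.54 in MDA-MB-436. FGFR4, a growth factor receptor for which MDA-MB-453 is known, had 1.92, 1.94 and 2.08 in these libraries, 0.865, 0.842 and 2.40 in MDA-MB-231 and 3.92, 3.15 and 3.84 in MDA-MB-436. FGFR4 was thus below MDA-MB-436 in every set.

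Mesenchymal genes were present at high level. VIM, vimentin of the mesenchymal cytoskeleton, had 401, 210 and 233 RPKM in the libraries labelled MDA-MB-453, 306, 299 and 212 in MDA-MB-231 and 341, 240 and 214 in MDA-MB-436. Those ranges overlapped. The list of 32 mesenchymal genes summed to 2104 to 2597 RPKM in the libraries labelled MDA-MB-453, 2640 to 3383 in MDA-MB-231 and 1699 to 2089 in MDA-MB-436. Of its members 22, 24 and 29 lay between the other lines, 20 in all 3 sets, beside 47.1%, 73.8% and 83.0% of all tested genes. Against the mean of those lines 0 of 30 tested members passed, beside 0.0154% of all tested genes. TWIST1 and MMP14 were chosen after their values were seen. TWIST1, an inducer of the mesenchymal state, had 9.10, 13.0 and 13.6 in the libraries labelled MDA-MB-453, 0.0293, 0 and 0 in MDA-MB-231 and 25.6, 29.4 and 34.9 in MDA-MB-436. MMP14, a membrane-bound matrix protease, had 80.7, 74.9 and 100.3 in the libraries labelled MDA-MB-453, 231.2, 150 and 201 in MDA-MB-231 and 0.467, 1.14 and 0.818 in MDA-MB-436. Genes that mark 1 of the other lines and are near absent from the other were thus found together in these 3 libraries.

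The remaining lists varied in how many members lay between the other lines. Of 24 claudin and epithelial junction genes 16, 18 and 18 lay between the other lines, and their summed level was 89.5 to 153 RPKM in the libraries labelled MDA-MB-453, 189 to 301 in MDA-MB-231 and 21.5 to 32.2 in MDA-MB-436. Of 20 basal epithelial genes 15, 12 and 19 lay between. Of 30 NF-kB target genes it was 23, 24 and 28, of 30 interferon-stimulated genes 17, 24 and 28, and of 24 cholesterol synthesis genes 8, 15 and 22. Of 30 DNA replication genes 10, 26 and 26 lay between, of 30 mitosis genes 5, 25 and 29, and of 18 immediate-early genes 10, 16 and 16. Of 25 ribosomal protein genes it was 12, 11 and 19, and of 13 mitochondrially encoded genes 9, 5 and 10. The share over all tested genes was 47.1%, 73.8% and 83.0% in the Control, GSK343 and shEZH2 sets, while some lists also hold genes not tested. In the Control set fewer mitosis, replication and cholesterol genes lay between, as a share. Fewer ribosomal protein, mitochondrially encoded, cholesterol and basal genes did so in the GSK343 set, and fewer ribosomal protein, mitochondrially encoded and junction genes in the shEZH2 set. Markers of other cell types were low in all lines. The 9 leukocyte markers summed to 4.45 to 9.92 RPKM in the libraries labelled MDA-MB-453, 6.11 to 13.0 in MDA-MB-231 and 6.43 to 9.20 in MDA-MB-436. The 6 endothelial markers summed to at most 2.57, 3.002 and 3.13 in the same order of lines, the 8 fibroblast and adipocyte markers to at most 3.86, 5.01 and 3.54, and the 5 melanocyte markers to at most 2.03, 6.11 and 0.471.

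Over all genes the libraries labelled MDA-MB-453 differed from each other line far more than from the mean of both. An average of unlike lines can be nearer to another library than either line by construction, which limits this comparison. With limma 2 of 12965 genes passed against the mean, 1 higher and 1 lower, while 890 were at an unadjusted p under 0.05. The higher one was MT-TW, a mitochondrial tRNA, with 6, 5 and 1 reads in the libraries labelled MDA-MB-453, 0, 1 and 0 in MDA-MB-231 and 2, 0 and 1 in MDA-MB-436 (log2 difference 1.38 ± 0.44, adjusted p = 0.0232). The lower one, RP11-40C6.2, had 1, 1 and 3 reads in the libraries labelled MDA-MB-453, 5, 5 and 12 in MDA-MB-231 and 4, 4 and 6 in MDA-MB-436 (-0.93 ± 0.27, adjusted p = 0.0166). Both rest on few reads. Against MDA-MB-231 4157 genes passed, 2631 higher and 1526 lower, and against MDA-MB-436 4119 passed, 2179 higher and 1940 lower. These directions depended on the scaling. Against MDA-MB-231 2111 were higher and 2358 lower with median-ratio rescaling, and 2478 higher and 2962 lower with the GC and length trend removed. The median log2 difference over all genes was -0.05 and -0.06 there, against 0.05 on deposited RPKM. Against MDA-MB-436 2507 were higher and 4185 lower with the trend removed (median -0.13, against -0.03 on deposited RPKM), and 3127 higher and 3677 lower without the Control set. Without the filter on low values 0 genes passed against either line. Without the replicate block the counts were 1921 against MDA-MB-231, 2629 against MDA-MB-436 and 0 against the mean. The same test between MDA-MB-231 and MDA-MB-436 called 8266 genes (63.8%), 3723 higher and 4543 lower, or 4275 higher and 4020 lower with median-ratio rescaling. The count against the mean depended on single sets, with 4 genes without the Control set, 50 without the GSK343 set and 62 without the shEZH2 set.

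The size of the differences had the same order, with the same limit from averaging. The SD over tested genes of the log2 difference from the mean of the other lines was 0.43 in the Control set, 0.23 in the GSK343 set and 0.17 in the shEZH2 set. Between MDA-MB-231 and MDA-MB-436 it was 1.08, 1.13 and 1.15. Differences of at least 2-fold from the mean were seen for 1.74%, 0.455% and 0.208% of the tested genes, against 24.6%, 27.9% and 28.3% between the other lines. Of the genes that differed at least 4-fold between MDA-MB-231 and MDA-MB-436, 779 of 784, 874 of 879 and 922 of 926 had their MDA-MB-453 level between the lines. Over all tested genes that share was 47.1%, 73.8% and 83.0%. Genes chosen for a wide gap leave more room for a level between the lines, so their share is high in part by that choice.

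**Figure D2:**
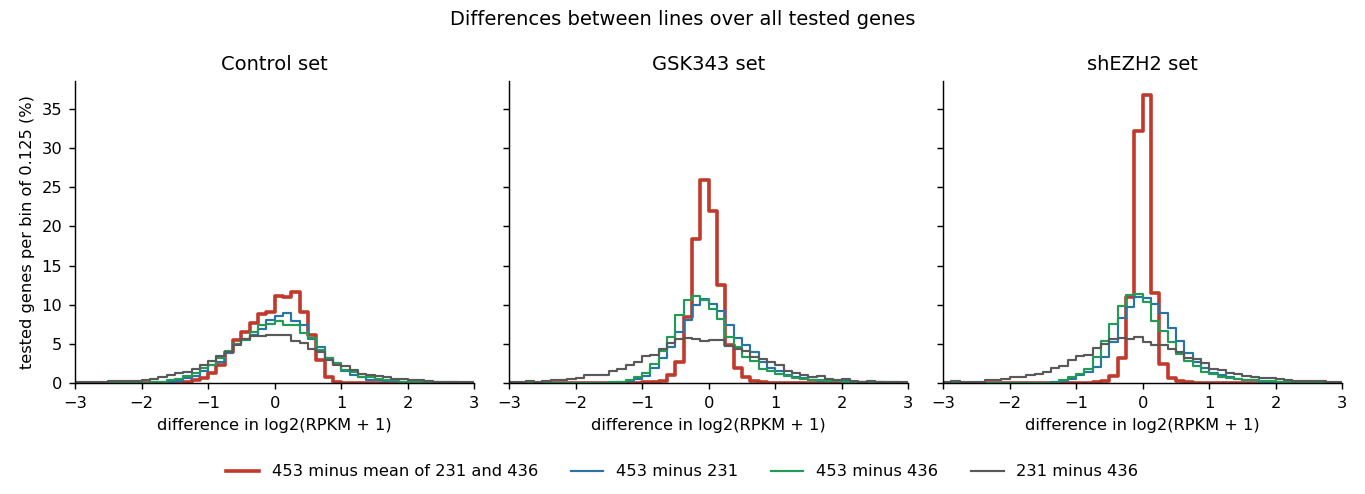
Distribution over 12965 tested genes of differences in log2(RPKM + 1), as a percentage of genes in each bin of the axis, by matched set. The difference of the libraries labelled MDA-MB-453 from the mean of the other lines (red) was narrower than that between MDA-MB-231 and MDA-MB-436 (grey) in every set, with the differences from each line (blue and green) in between, and narrowest in the shEZH2 set.

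Genes found in only 1 of the other lines were set beside their level in that line, as a description with no test. They were defined from MDA-MB-231 and MDA-MB-436 alone, as at least 5 RPKM in all 3 libraries of one and under 0.5 in all 3 of the other. All 90 genes restricted to MDA-MB-231 and all 111 restricted to MDA-MB-436 were detected in each library labelled MDA-MB-453, at no less than 1.43 RPKM. For the 90 genes the ratio of the level labelled MDA-MB-453 to that in MDA-MB-231 had medians of 0.417, 0.527 and 0.501 in the Control, GSK343 and shEZH2 sets. For the 111 genes the ratio to MDA-MB-436 had medians of 0.410, 0.447 and 0.467. The quartiles of the ratios were 0.450 to 0.574 and 0.437 to 0.498 in the shEZH2 set, and wider in the Control set (0.337 to 0.578 and 0.315 to 0.559). A ratio above 1 was seen for 1 gene in 1 set, at 1.04. The genes share the same libraries and are not independent readings.

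CD74, the invariant chain of MHC class II, was one of the most abundant genes restricted to MDA-MB-231. It had 71.4, 165 and 173 RPKM in the libraries labelled MDA-MB-453, 232, 246 and 397 in MDA-MB-231 and 0.430, 0.341 and 0.300 in MDA-MB-436. The metalloprotease inhibitor TIMP3 had 87.7, 38.2 and 45.7 in the libraries labelled MDA-MB-453, 164, 68.1 and 96.5 in MDA-MB-231 and at most 0.362 in MDA-MB-436. On the other side, UCHL1, a ubiquitin hydrolase of neurons and tumours, had 106, 132 and 131 in the libraries labelled MDA-MB-453, 0.235, 0.386 and 0.168 in MDA-MB-231 and 252, 282 and 275 in MDA-MB-436. The cancer-testis gene MAGEA4 had 119, 86.8 and 94.3 in the libraries labelled MDA-MB-453, at most 0.308 in MDA-MB-231 and 291, 206 and 198 in MDA-MB-436. In each of these genes the 3 libraries followed the expressing line at a lower level.

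The locus of CDKN2A, which MDA-MB-231 is known to have lost, was named after its values were seen. CDKN2A (ENSG00000147889.17, chromosome 9, 21967753 to 21995301), a cell cycle inhibitor, had 17.3, 18.5 and 18.6 RPKM in the libraries labelled MDA-MB-453, 0, 0.0626 and 0.0505 in MDA-MB-231 and 54.1, 42.5 and 44.2 in MDA-MB-436. Its neighbour MTAP, an enzyme of methionine salvage, had 2.28, 1.17 and 1.28 in the libraries labelled MDA-MB-453, had 0, 0.00464 and 0 in MDA-MB-231 and 3.28, 2.73 and 2.80 in MDA-MB-436. RB1, the retinoblastoma protein that CDKN2A acts through, had 16.8, 11.96 and 10.7 in the libraries labelled MDA-MB-453, 17.0, 14.5 and 17.4 in MDA-MB-231 and 1.41, 2.78 and 2.33 in MDA-MB-436. All 3 genes lay between the other lines in each set.

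**Figure D3:**
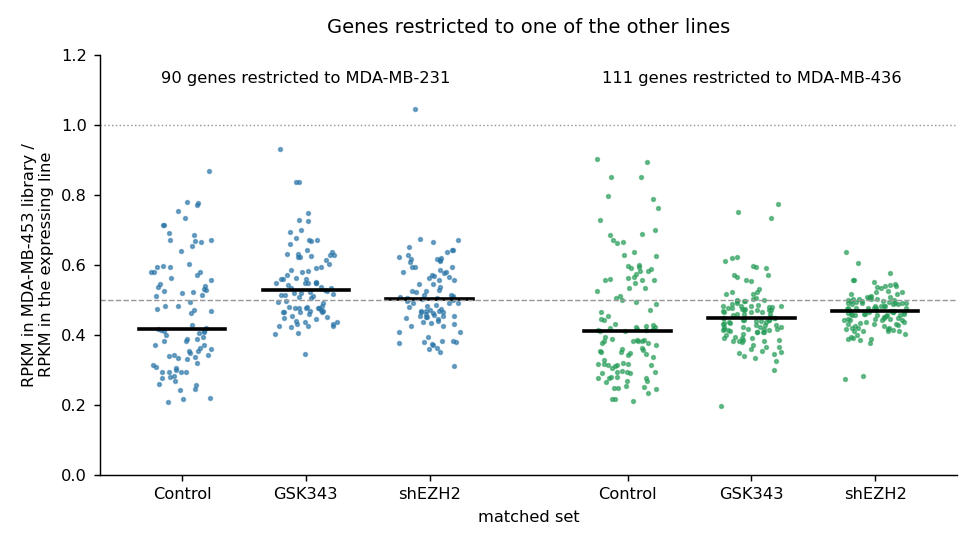
Ratio of RPKM in the library labelled MDA-MB-453 to RPKM in the expressing line (vertical axis, from 0) for 90 genes restricted to MDA-MB-231 (blue) and 111 restricted to MDA-MB-436 (green), by matched set. Each point is a gene, black bars are medians between 0.410 and 0.527, and the dashed and dotted lines mark 0.5 and 1.

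Genes of the libraries labelled MDA-MB-453 alone were not seen at an appreciable level. Of 40449 genes under 0.5 RPKM in all 6 libraries of the other lines, 0 reached 1 RPKM in all 3 libraries. The highest mean was 1.01, for the mitochondrial pseudogene MTND1P8. Reads were recovered from the RPKM by exon length for the genes that match the annotation. Of 22039 such genes with 0 reads in the 6 other libraries, 425, 841 and 823 had a read in the Control, GSK343 and shEZH2 libraries labelled MDA-MB-453, and the most for any gene was 3, 4 and 4. With 5 other libraries to compare with, single libraries of the other lines had 481 to 1420 such genes and up to 10 reads. Those 5 include the remaining libraries of the same line, while the 6 hold none labelled MDA-MB-453. The counts are thus not on equal terms, since genes of their own line are largely taken out for MDA-MB-231 and MDA-MB-436.

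Weighted sums of the other lines were then set beside each library, with weights chosen to minimise the squared log2 residual over the tested genes and no test. With the 2 libraries of the same set, the weights of MDA-MB-231 were 0.527, 0.497 and 0.520 in the Control, GSK343 and shEZH2 sets, and those of MDA-MB-436 were 0.452, 0.472 and 0.479. They summed to 0.979, 0.968 and 0.999. The root mean square log2 residual was 0.43, 0.23 and 0.17. On linear RPKM, where the most abundant genes count most, the GSK343 library had weights of 0.856 and 0.138 instead.

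All 6 libraries of the other lines were also offered to the fit, a choice made after the data were seen. The Control library labelled MDA-MB-453 then took 0.527 of MDA-MB-231 Control, 0.328 of MDA-MB-436 Control and 0.111 of MDA-MB-436 GSK343. The GSK343 library took 0.231 and 0.208 of MDA-MB-231 GSK343 and MDA-MB-436 GSK343, and 0.223 and 0.267 of the shEZH2 libraries of these lines. The shEZH2 library took 0.304 and 0.225 of MDA-MB-231 shEZH2 and MDA-MB-436 shEZH2, and 0.197 and 0.232 of the GSK343 libraries. Control libraries had weights of at most 0.0412 in both. The root mean square residual was 0.20 for the GSK343 library and 0.13 for the shEZH2 library, below the values with 2 libraries. More weights lower a residual by construction. For EZH2 the weighted sums of 6 libraries gave 28.04, 17.7 and 17.3 RPKM in the Control, GSK343 and shEZH2 sets. Those of 2 libraries gave 32.03, 6.42 and 26.4, and the measured values were 42.3, 7.99 and 16.2. With 6 libraries the sum was thus farther from the measured value in the Control and GSK343 sets and nearer in the shEZH2 set. The reason was not tested.

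**Figure D4:**
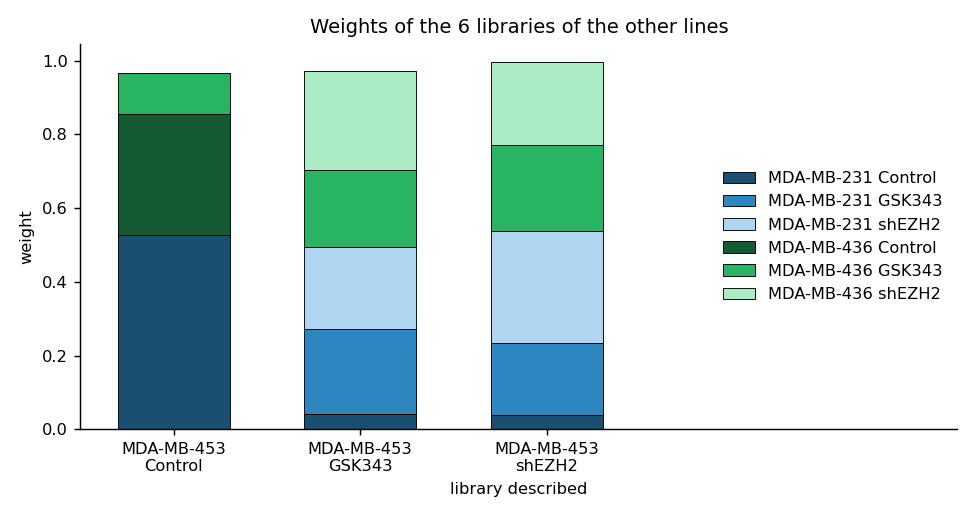
Weights (vertical axis, stacked, from 0) of the 6 libraries of MDA-MB-231 (blue) and MDA-MB-436 (green) that best described each library labelled MDA-MB-453 on the log2 scale. The GSK343 and shEZH2 libraries each drew on the GSK343 and shEZH2 libraries of both lines, with 0.440 and 0.429 in all from GSK343 and 0.490 and 0.529 from shEZH2.

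The residuals were compared with counting error in 12042 genes with recovered reads. The spread of residuals (interquartile range scaled to an SD) was 5.94, 2.51 and 1.74 times the counting error with the 2 libraries of the set, and 5.97, 2.39 and 1.38 times with all 6. For comparison, libraries of MDA-MB-231 described by the other 2 libraries of that line gave 4.38, 3.28 and 3.91, and those of MDA-MB-436 gave 4.04, 1.77 and 1.72. The shEZH2 library labelled MDA-MB-453 was thus described by the 6 libraries of other lines to 1.38 counting errors, and with 2 libraries to 1.74. The within-line values come from libraries of other treatments and so hold treatment differences, which the fits with the same set do not. Counting error takes reads as independent molecules and covers no other error.

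Genes that separate GSK343 from shEZH2 within MDA-MB-231 and are low in MDA-MB-436 gave a reading by treatment. For the matrix metalloprotease MMP3 (chromosome 11, 102835801 to 102843803), which degrades matrix proteins, RPKM was 1.58, 30.1 and 51.2 in the Control, GSK343 and shEZH2 libraries labelled MDA-MB-453. It was 2.07, 194 and 12.2 in MDA-MB-231 and 0.495, 0.855 and 0.823 in MDA-MB-436. The shEZH2 library labelled MDA-MB-453 thus exceeded both shEZH2 libraries of the other lines and lay below the GSK343 library of MDA-MB-231. A separate set of genes had at least 5 RPKM in 1 of these libraries of MDA-MB-231, differed between them at least 2 times and was under 0.5 RPKM in the GSK343 and shEZH2 libraries of MDA-MB-436. Of these, 6 were higher in the GSK343 library of MDA-MB-231, with a median ratio of 2.54, and the median ratio in the libraries labelled MDA-MB-453 was 1.33. The other 24 were higher in the shEZH2 library of MDA-MB-231. Their median ratio of GSK343 to shEZH2 was 0.724 in the libraries labelled MDA-MB-453 and 0.377 in MDA-MB-231. The 24 include INHBB, an inhibin subunit chosen after its values were seen, with a ratio of 0.649 in the libraries labelled MDA-MB-453 and 0.212 in MDA-MB-231. The choice by MDA-MB-231 values favours large ratios there.

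The Control library labelled MDA-MB-453 departed most from the range of the other lines. Among 7420 genes with a mean of at least 5 RPKM, 22.7% had an RPKM + 1 more than 25% above the higher or more than 20% below the lower line in the Control set, 1.55% in the GSK343 set and 0.189% in the shEZH2 set. With MDA-MB-231 in that place the shares were 39.7%, 45.2% and 44.7%, and with MDA-MB-436 42.7%, 45.3% and 46.6%. ASPM, a spindle pole protein, had 34.1 RPKM in the Control library labelled MDA-MB-453, against 16.3 in MDA-MB-231 Control and 16.5 in MDA-MB-436 Control. The signal receptor IL6ST, shared by cytokines of the interleukin 6 family, had 54.4, against 30.1 in MDA-MB-231 and 23.7 in MDA-MB-436. Below the range were RPL41 and RPS15, both ribosomal proteins, with 21.8 and 26.0 under the label MDA-MB-453, 95.4 and 80.9 in MDA-MB-231 and 93.6 and 72.1 in MDA-MB-436. NDUFB7, a subunit of mitochondrial complex I, had 109, against 273 in MDA-MB-231 and 286 in MDA-MB-436. In the GSK343 and shEZH2 sets these genes did not leave the range by that much. ASPM had 17.2 and 18.3 in the GSK343 and shEZH2 libraries labelled MDA-MB-453, 9.51 and 23.0 in MDA-MB-231 and 18.2 and 18.7 in MDA-MB-436.

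The genes above and below that range differed in base composition. The middle 150 coding bases of the most GC-rich protein-coding genes among those farthest below it (C4orf48 and NDUFB7) and of an AT-rich one among those farthest above it (IL6ST) are shown for that contrast, from GENCODE release 29 on GRCh38, 5′ to 3′ on the coding strand, with G and C in capitals.
C4orf48 (chr4:2041993-2043970, plus strand, coding bases 118 to 267, 77.3% G or C): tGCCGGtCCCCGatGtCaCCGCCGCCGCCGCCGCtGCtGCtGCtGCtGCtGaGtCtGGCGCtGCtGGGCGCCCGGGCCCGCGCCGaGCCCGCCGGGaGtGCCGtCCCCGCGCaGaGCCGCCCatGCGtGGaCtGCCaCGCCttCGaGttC
NDUFB7 (chr19:14566078-14572062, minus strand, coding bases 130 to 279, 64.7% G or C): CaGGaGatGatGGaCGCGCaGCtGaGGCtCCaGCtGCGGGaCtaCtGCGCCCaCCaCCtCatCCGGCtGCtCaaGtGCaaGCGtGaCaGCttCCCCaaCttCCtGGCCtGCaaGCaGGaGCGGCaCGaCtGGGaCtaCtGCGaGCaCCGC
IL6ST (chr5:55935095-55994993, minus strand, coding bases 1303 to 1452, 42.0% G or C): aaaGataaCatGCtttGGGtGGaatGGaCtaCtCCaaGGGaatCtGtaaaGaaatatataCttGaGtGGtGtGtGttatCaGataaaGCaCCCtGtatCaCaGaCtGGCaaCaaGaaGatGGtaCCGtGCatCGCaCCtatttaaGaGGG

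Across 7417 abundant genes with a known transcript, the log2 difference from the mean of the other lines ran with the GC content of the longest transcript in the Control set (Pearson's r = -0.857 across genes, which are not independent replicates). From the fifth of genes lowest in GC to the highest the median difference was 0.47, 0.30, 0.06, -0.29 and -0.62. In the GSK343 set r was -0.088 with GC and 0.420 with log2 transcript length, and in the shEZH2 set -0.282 with GC. Between MDA-MB-231 and MDA-MB-436 r with GC was -0.044, -0.007 and -0.019. The difference of the GSK343 from the Control library had r = 0.636 with GC in the libraries labelled MDA-MB-453, against -0.002 in MDA-MB-231 and -0.106 in MDA-MB-436. For shEZH2 against Control it was 0.662, 0.041 and -0.026. With the trend on GC and length taken out, 2.67% of those genes remained outside the range in the Control set, 0.849% in the GSK343 set and 0.148% in the shEZH2 set. Whether the trend came from the cells or from the preparation of that library was not tested.

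**Figure D5:**
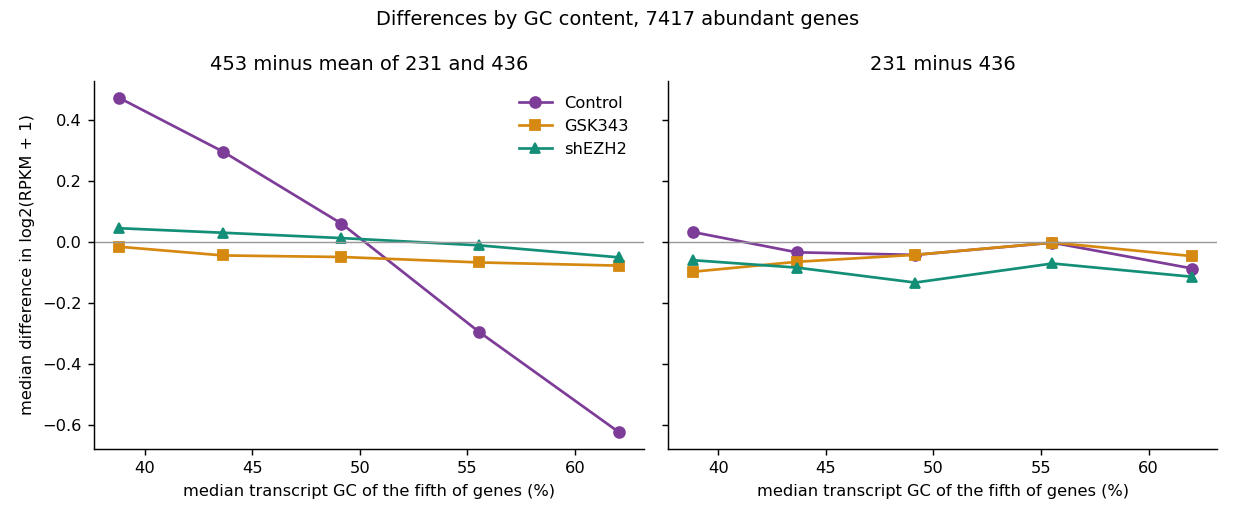
Median difference in log2(RPKM + 1) (vertical axis) of 5 groups of genes ordered by transcript GC content (horizontal axis, percent), by matched set. The left panel shows the libraries labelled MDA-MB-453 against the mean of the other lines and the right panel MDA-MB-231 against MDA-MB-436. The Control set on the left had the steepest slope, with medians between 0.47 and -0.62.

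Ribosomal and mitosis genes are given beside this trend, and its part in their values was not tested. The list of 25 ribosomal protein genes had a median difference from the mean of the other lines of -0.52 in the Control set, -0.28 in the GSK343 set and -0.01 in the shEZH2 set, and 13, 14 and 3 of its members were below both lines, as were 22.6%, 14.96% and 6.78% of all tested genes. The 30 mitosis genes had medians of 0.29, 0.05 and -0.08, with 19, 5 and 0 above both lines, as were 30.4%, 11.2% and 10.3% of all tested genes. The median over all tested genes was 0.04, -0.03 and 0.01. Of the tested members of these lists 0 passed against the mean of the other lines with limma, beside 0.0154% of all tested genes.

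The other sets held few genes beyond the range. In the GSK343 set KDELR1, a receptor that returns proteins to the endoplasmic reticulum, had 162 RPKM in the library labelled MDA-MB-453, against 71.4 in MDA-MB-231 and 35.1 in MDA-MB-436. In the other sets the library labelled MDA-MB-453 had 119 and 112, MDA-MB-231 200 and 210 and MDA-MB-436 127 and 119. The gene was thus low in the GSK343 libraries of the other lines and not in that labelled MDA-MB-453. SEC61B, a subunit of the translocation channel of the endoplasmic reticulum, had 34.7, 8.65 and 37.8 in the Control, GSK343 and shEZH2 libraries labelled MDA-MB-453, against 46.6, 60.1 and 46.6 in MDA-MB-231 and 43.2, 31.5 and 27.4 in MDA-MB-436. In the shEZH2 set RPPH1, the RNA of ribonuclease P, had 22.0 in the library labelled MDA-MB-453, against 0.0857 in MDA-MB-231 and 0 in MDA-MB-436, or 233 reads against 1 and 0. It was detected in all other libraries, with 12.5 and 27.6 in the Control and GSK343 libraries labelled MDA-MB-453, 21.8 and 45.4 in MDA-MB-231 and 6.26 and 34.8 in MDA-MB-436. SOCS1, a suppressor of cytokine signalling, had 6.04 in the shEZH2 library labelled MDA-MB-453, against 8.93 in MDA-MB-231 and 8.85 in MDA-MB-436. Each of these values rests on 1 library.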

How the data were processed

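The 9 libraries are RNA sequencing of total RNA. The authors deposited RPKM values, 1 table of 58037 genes with 9 sample columns, and 0 columns were left unused. STAR, HTSeq and GRCh38 are named in the submitters' processing notes, without versions. Annotation and strandedness of the counting were not stated in any source used here. Hence overlapping genes, antisense genes and small RNAs within other genes are uncertain. Values divided into whole reads with exon lengths of GENCODE release 29 for 100% of the values compared (within 0.05 of a read), and 92.5% of identifiers matched that release. These reads serve only to describe depth and counting error. No count test was run on them, since the test of differences was set out for log2(RPKM + 1).

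Differences were formed within each matched set on log2(RPKM + 1), with the mean RPKM of both other lines as the other side, and fitted with limma 3.58.1 in R 4.3.3 (moderation with a trend, two-sided, Benjamini-Hochberg, threshold 0.05). Forming them within a set is the block on the replicate number, which stands for the treatment label. The genes tested, the 18 gene lists and the measures were chosen with earlier results of these data known. The text names only some of the genes that qualify under fixed rules. These take the 10 largest differences per direction among those past the threshold, filled up by smallest p, all luminal genes, up to 4 members of each other list with the highest mean RPKM, the 8 most abundant restricted genes per line, the 10 genes per direction farthest outside the range in the Control set and up to 5 in the other sets, and the 10 highest genes near absent elsewhere. TWIST1, MMP14, FKBP5, KLK2, KLK3, INHBB, CDKN2A, MTAP and RB1 fall outside these rules and were chosen after their values were seen. Other values came from Python 3.11.15 with numpy 2.4.6, scipy 1.17.1 and pandas 2.3.3. GC content is that of the longest transcript, and its trend was a spline. The fit was tested on simulated data. Alternatives covered the pseudocount, the filter, the scaling, the moderation, the block, and left-out sets or libraries. Some items are not reported here.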

Additional observations from a re-analysis of the deposited data

Results flagged for a closer look

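MMP3 moved in opposite directions in different sets. The library labelled MDA-MB-453 was below the mean of the other lines in the GSK343 set, with a log2 difference of -1.66, and above it in the shEZH2 set, at 2.80. The difference between the sets was not tested, since each has 1 library per line.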

How the results depend on the processing

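The count against the mean of the other lines was 2. It was 0 without the filter on low values, without the moderation trend, without the replicate block and with the GC and length trend removed (added after seeing the data), 7 with a mean RPKM of at least 5 and 18 on a common sum or with robust moderation. Leaving out a set gave 4 to 62. With the mean of log2 values as the other side it was 321 (317 higher, 4 lower), and 193 to 339 with a library left out, since that mean lies below the mean RPKM by construction. With a set left out, log2 differences from the mean RPKM went as low as -0.52 for SPDEF, -0.54 for KRT19 and -0.29 for KRT7. With log2 means SPDEF reversed to 1.29 (1.13 to 1.72 with a library left out), KRT19 to 2.13 (1.89 to 2.42) and KRT7 to 0.82 with the library labelled MDA-MB-453 Control left out.

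Against MDA-MB-231 the count was 0 without the filter, 2448 with a mean RPKM of at least 5 and 1921 without the replicate block. Against MDA-MB-436 it was 0, 2266 and 2629, with 6692 after removal of the GC trend and 2242 to 6804 with a set left out. Between the other lines it was 4897 with a mean RPKM of at least 5. KRT8 lost its call against MDA-MB-436 also with a pseudocount of 0.1, median-ratio rescaling or no block, and without the block FOXA1 lost that call and SPDEF the one against MDA-MB-231.

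The weights (MDA-MB-231 first, then MDA-MB-436) by linear least squares were 0.451 and 0.474 in the Control, 0.856 and 0.138 in the GSK343 library, and 0.557 for MDA-MB-231 in the shEZH2 library. On a common sum they were 0.544 and 0.504 in the Control and 0.524 and 0.449 in the GSK343 library. Over genes differing at least 4-fold they were 0.471 and 0.412 in the Control, 0.457 for MDA-MB-436 in the GSK343, and 0.493 and 0.456 in the shEZH2 library, and 0.539 and 0.457 there with 6 libraries. The median ratio of genes restricted to MDA-MB-436 in the Control set was 0.358 with limits of 10 and 0.1 RPKM and 0.458 on a common sum.

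The share outside the range was 6.40%, 0.229% and 0.0404% in the 3 sets with a factor of 1.5, 0.701%, 0.0943% and 0.0270% with a factor of 2, and 2.67% and 0.849% in the Control and GSK343 sets with the GC trend removed. It was 0.655% in the shEZH2 set with a mean RPKM of at least 1. Of 1011 alternatives for 47 results on single genes, 865 kept direction and side of the threshold. The causes were not tested. One library per line and treatment limits every set, and low genes such as TFF1 rest on few reads.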
